A study of Mus musculus with 6 samples.

Results

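Binding of C/EBPα, IRF8 and JUNB was examined at 10 inflammatory cytokine genes of macrophages outside the IL-1 family, Tnf, Il6, Osm, Lif, Il12a, Il12b, Il10, Il15, Il16 and Ifnb1. A peak was counted for a gene when the authors' nearest-TSS annotation gave that gene name. By this rule 187 of 134964 peaks in 6 lists were taken, by gene name and not by score. The genes themselves were chosen with earlier results of these data known. Each list was the result of 1 ChIP-seq sample, that is chromatin immunoprecipitation followed by sequencing, from macrophages grown out of mouse bone marrow (BMDMs), and each factor and condition had 1 list. All 6 samples were labelled Wt, from mice of 8 to 12 weeks, and the study's methods name the strain as C57BL/6. Marrow cells were differentiated for 6 days with L929 supernatant, a source of macrophage colony-stimulating factor (MCSF). The control samples of the 3 factors received no IL-4, and the IL-4 samples received 20 ng/ml for 1 h. DSG and formaldehyde were used together for cross-linking in all samples, and libraries were made with either of a pair of kits. With 1 sample per group there was no spread between replicates, so no difference was tested. Depth, kit and background cannot be told apart from IL-4.

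Enhancers of macrophage cytokine genes are occupied before any stimulus by lineage-determining factors, among them the C/EBP family, the ETS factor PU.1 with its partner IRF8, and AP-1, of which JUNB is a subunit. Signal-dependent factors such as NF-kB and STATs then act at these prepared sites. IL-4 signals through STAT6 and polarizes macrophages to the alternative state, in which many inflammatory cytokine genes respond less to microbial products.

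The sequences under 5 strong or multiply bound peaks are given first, as a description of their letters. Each is the 200 bases around the centre of the highest peak in the region that held peaks in the most lists (Il6, Il10, Il15 and Ifnb1, 5 lists each, and Tnf, 4 lists), read from GRCm38, the assembly that mm10 names. Capitals mark matches, on either strand, to AP-1 (TGACTCA or TGAGTCA), C/EBP (TTGCNNAA), IRF (GAAANNGAA), ETS-IRF (GGAANNGAA), PU.1 (GAGGAAG), NF-kB (GGNNNTTCC) and STAT6-type (TTC and GAA separated by 3 or 4 bases) letters. IRF and ETS-IRF matches can overlap each other.
Tnf intron 3 peak, chr17:35200532-35200731, plus strand: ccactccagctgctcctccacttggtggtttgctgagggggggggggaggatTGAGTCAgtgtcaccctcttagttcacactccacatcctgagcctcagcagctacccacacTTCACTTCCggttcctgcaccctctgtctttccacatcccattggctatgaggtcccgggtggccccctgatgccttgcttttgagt
Il6 upstream peak, chr5:29948298-29948497, plus strand: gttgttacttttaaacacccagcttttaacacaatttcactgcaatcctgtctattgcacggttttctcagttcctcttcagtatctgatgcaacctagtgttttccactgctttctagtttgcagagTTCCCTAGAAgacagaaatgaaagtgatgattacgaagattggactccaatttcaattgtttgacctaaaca
Il10 downstream peak, chr1:131038197-131038396, plus strand: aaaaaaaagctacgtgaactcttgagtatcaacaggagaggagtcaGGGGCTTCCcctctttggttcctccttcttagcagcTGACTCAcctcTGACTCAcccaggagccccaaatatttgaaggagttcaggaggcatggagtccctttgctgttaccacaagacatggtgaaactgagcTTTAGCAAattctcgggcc
Il15 intron 1 peak, chr8:82383467-82383666, plus strand: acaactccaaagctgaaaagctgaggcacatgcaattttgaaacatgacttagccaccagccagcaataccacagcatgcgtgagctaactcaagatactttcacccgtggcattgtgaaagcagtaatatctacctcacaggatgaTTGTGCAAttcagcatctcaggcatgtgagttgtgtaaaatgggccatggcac
Ifnb1 upstream peak, chr4:88537447-88537646, plus strand: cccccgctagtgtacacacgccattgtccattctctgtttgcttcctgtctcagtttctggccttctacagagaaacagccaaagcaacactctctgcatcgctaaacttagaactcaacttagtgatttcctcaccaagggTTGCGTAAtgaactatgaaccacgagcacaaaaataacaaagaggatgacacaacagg

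The Il10 window held 2 AP-1 matches and the Tnf window held 1, and the Il10, Il15 and Ifnb1 windows held 1 C/EBP match each. The Tnf window was intronic except for 32 bases of the last exon, and the Il6 window, called Intergenic by the authors, lay wholly in an exon of the GENCODE gene model Gm43386. The windows of Il10, Il15 and Ifnb1 overlapped no GENCODE exon.

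The promoters of Tnf, Il6 and Ifnb1 are shown because each carried a peak called promoter-TSS in both conditions. The 200 bases before the RefSeq start are given on the gene's strand, from the RefSeq promoter table of GRCm38.p6, with the same capitals.
Tnf promoter, chr17:35202008-35202207, minus strand: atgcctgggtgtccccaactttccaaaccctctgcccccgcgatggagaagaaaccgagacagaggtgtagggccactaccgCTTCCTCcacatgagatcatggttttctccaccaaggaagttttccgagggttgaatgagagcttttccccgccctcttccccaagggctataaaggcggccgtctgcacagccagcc
Il6 promoter, chr5:30012914-30013113, plus strand: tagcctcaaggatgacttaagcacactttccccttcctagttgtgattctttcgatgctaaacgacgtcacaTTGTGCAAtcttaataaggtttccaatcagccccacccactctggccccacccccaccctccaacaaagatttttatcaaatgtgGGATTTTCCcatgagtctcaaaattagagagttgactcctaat
Ifnb1 promoter, chr4:88522795-88522994, minus strand: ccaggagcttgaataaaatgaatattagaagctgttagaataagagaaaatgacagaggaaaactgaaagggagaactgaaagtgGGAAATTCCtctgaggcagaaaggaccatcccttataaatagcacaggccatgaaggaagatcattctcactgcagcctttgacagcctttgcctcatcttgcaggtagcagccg

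The Tnf promoter window held 1 PU.1 match, the Il6 window 1 C/EBP and 1 NF-kB match, and the Ifnb1 window 1 NF-kB match. Over all 32851 promoters of the table, windows of the same length held a PU.1 match in 8.84%, a C/EBP match in 7.47% and an NF-kB match in 13.1%.

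All 10 genes had C/EBPα and IRF8 peaks in both conditions, whereas JUNB peaks were assigned to 4 of them in each condition. The cytokine genes took 32 of 24486 C/EBPα control peaks (0.131%) and 36 of 24612 after IL-4 (0.146%). For IRF8 they took 49 of 37525 (0.131%) and 59 of 42076 (0.14%), and for JUNB 7 of 3940 (0.178%) and 4 of 2325 (0.172%). C/EBPα and IRF8 peaks at these genes were thus more numerous after IL-4 and JUNB peaks fewer, as were the peaks of the whole lists. Among peaks scoring at least 10, IRF8 had 30 in control and 29 after IL-4. Il15 had the most peaks (41 in all lists) and Il16 the fewest (8).

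**Figure D1:**
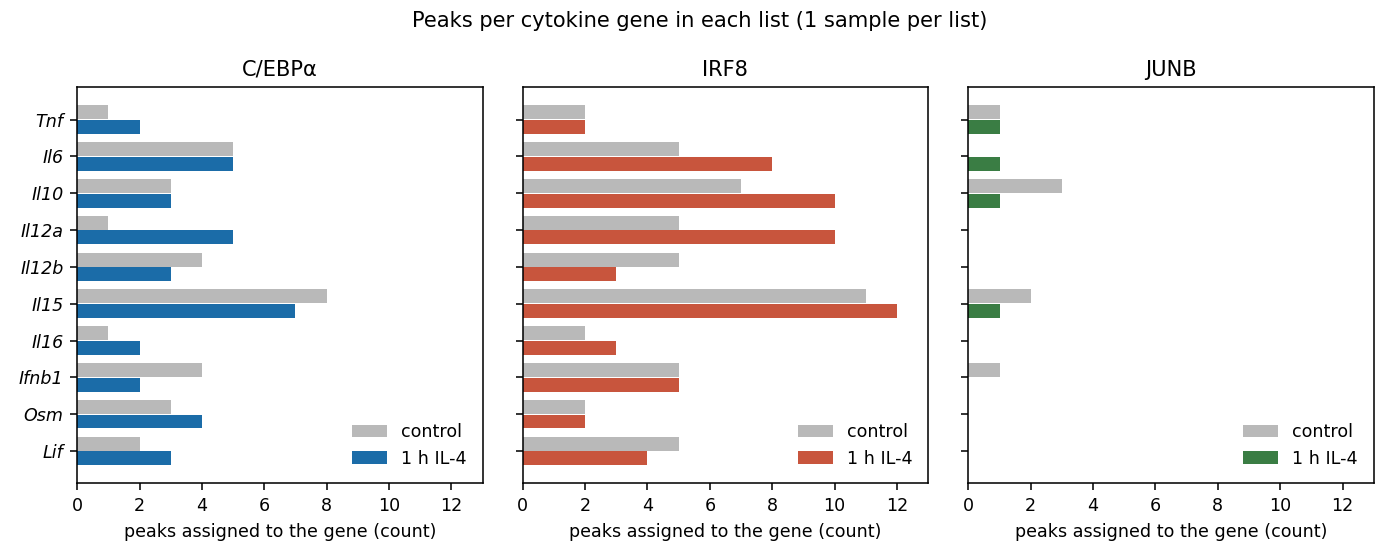
Number of peaks assigned to each cytokine gene (horizontal axis, count) for C/EBPα, IRF8 and JUNB, with control in grey and 1 h IL-4 in colour, 1 sample each. Il12a had 1 C/EBPα peak in control and 5 after IL-4, and 5 and 10 IRF8 peaks, while JUNB bars stand at 5 genes in at least 1 condition.

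Most of these peaks lay far from a promoter. In the C/EBPα and IRF8 lists 61.1% to 69.5% of the cytokine gene peaks were called Intergenic, against 42.0% to 43.0% of all peaks, and 20.3% to 28.1% were intronic, against 44.4% to 46.2%. Of promoter-TSS peaks, C/EBPα had 1 without and 2 with IL-4 (3.12% and 5.56%, against 6.88% and 7.35% of all peaks). IRF8 had 3 and 4 (6.12% and 6.78%, against 7.25% and 9.16%). JUNB had 0 in both lists, against 2.79% and 2.8%. Promoter peaks were thus few in the whole lists as well. The median distance to the TSS, without sign, was 16734 and 18957.5 bp for C/EBPα and 25921 and 22308 bp for IRF8. The medians over all peaks were of the same order, 20235 and 19445 bp and 20951 and 19977 bp. The farthest peak was an IRF8 peak at 211413 bp from the Il15 TSS.

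**Figure D2:**
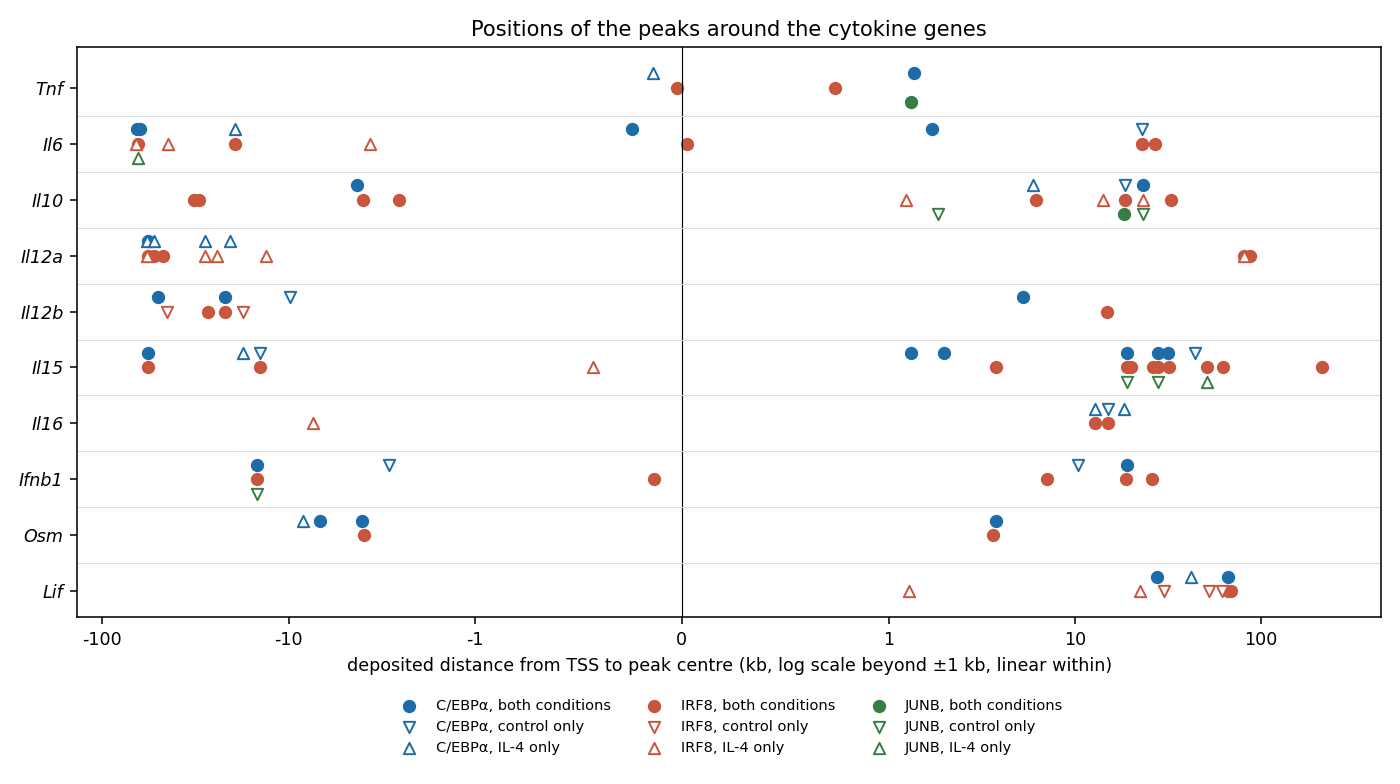
Deposited distance from the TSS to each peak centre (horizontal axis, kb, log scale beyond 1 kb on either side) for the 10 cytokine genes, with filled circles for peaks in both conditions (drawn at the control position), downward triangles for control only and upward triangles for IL-4 only. Peaks near the TSS were few, and Il12a shows 9 upward and no downward triangles, Il12b and Ifnb1 3 downward triangles each and no upward one.

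Peaks were compared by the deposited peak score, whose unit is not stated. It was read as a -log10 p- or q-value from its lowest values (1.3 to 1.76 in the 6 lists), so a ratio of scores compares significance, not coverage, and rises with depth. The median score at the cytokine genes was 12.795 for C/EBPα in control and 11.5 with IL-4 (list medians 11.195 and 11.22). For IRF8 it was 13.67 and 8.99 (list medians 10.34 and 9.61), and 30 of 49 control peaks but 29 of 59 IL-4 peaks stood above the median of their list. JUNB peaks had lower scores, with medians of 7.63 and 6.315, and the highest of them scored 11.98.

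A peak was called control-only or IL-4-only when no peak of the same factor in the other condition overlapped it by at least 1 bp. Of the C/EBPα peaks at cytokine genes, 8 of 32 were control-only (25.0%, Wilson 95% interval 13.3% to 42.1%), against 21.4% of all C/EBPα control peaks. Another 12 of 36 were IL-4-only (33.3%, 20.2% to 49.7%), against 22.0% of the list. Both intervals included the share of the whole list. The intervals cover counting error only, and the peaks of a locus are not independent.

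For IRF8, 5 of 49 peaks were control-only (10.2%, 4.44% to 21.8%), against 21.4% of all control peaks. A further 15 of 59 were IL-4-only (25.4%, 16.1% to 37.8%), against 30.4%. Both intervals again included the share of the list. The control-only count depended on the processing. Lists of equal length gave 10 control-only and 12 IL-4-only IRF8 peaks, and scores of at least 10 gave 8 and 7. Within 50000 bp of a reference TSS the IRF8 counts were 8 and 17. For JUNB, 5 of 7 control peaks had no IL-4 peak, against 64.2% of the list, and 2 of 4 IL-4 peaks had no control peak, against 39.2%. These JUNB counts are too small to be set apart from the list.

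At the cytokine genes, peaks found in 1 condition alone had mostly low scores, 40 of 47 scoring below the median of their list. The share over all such peaks of the series is not given here, so this cannot be read as particular to these genes. Among IL-4-only peaks, the highest scores were 13.2 (C/EBPα, Il15) and 17.57 (IRF8, Il10). Among control-only peaks they were 8.44 (C/EBPα, Il10), 8.94 (IRF8, Il12b) and 11.98 (JUNB, Il15).

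Peaks present in both conditions were paired, and a change was called at 1.5-fold of the score. C/EBPα scores were higher after IL-4 by this rule at 4 of 24 pairs, against 17.7% of all pairs, and lower at 6 of 24, against 17.8%. IRF8 scores were higher at 5 of 44 pairs (11.4%, Wilson 95% interval 4.95% to 24%), against 23.6%, and lower at 14 of 44 (31.8%, 20% to 46.6%), against 17.5%. The 14 lower IRF8 pairs were spread over 9 genes, all but Il16. For JUNB 1 of 2 pairs was higher, against 9.60% of all pairs, and 0 of 2 lower, against 47.9%.

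The median log2 score change was -0.03 for C/EBPα at cytokine genes (SD over pairs 0.64, n = 24) and 0.0 over all 19111 pairs. For IRF8 it was -0.13 (SD 0.96, n = 44) against 0.08 over 29110 pairs. At the cytokine genes 21 IRF8 pairs had the higher score after IL-4 and 23 the lower. The IRF8 median at these genes was -0.03 with only peaks within 100000 bp of the TSS, and also -0.03 with a larger overlap required for pairing. The list medians of IRF8 shifted by -0.11 on the log2 scale, and with scores divided by them the values were -0.02 for the cytokine genes and 0.19 for all pairs. On that scale 6 of 44 IRF8 pairs were higher (13.6%, Wilson 95% interval 6.4% to 26.7%), against 28.2% of all pairs, and 12 were lower (27.3%, 16.3% to 41.8%), against 14.4%, so that neither IRF8 interval included the share over all pairs. These intervals too cover counting error only. The pairs of a locus are not independent, each condition had 1 IRF8 sample, and the difference was not tested.

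**Figure D3:**
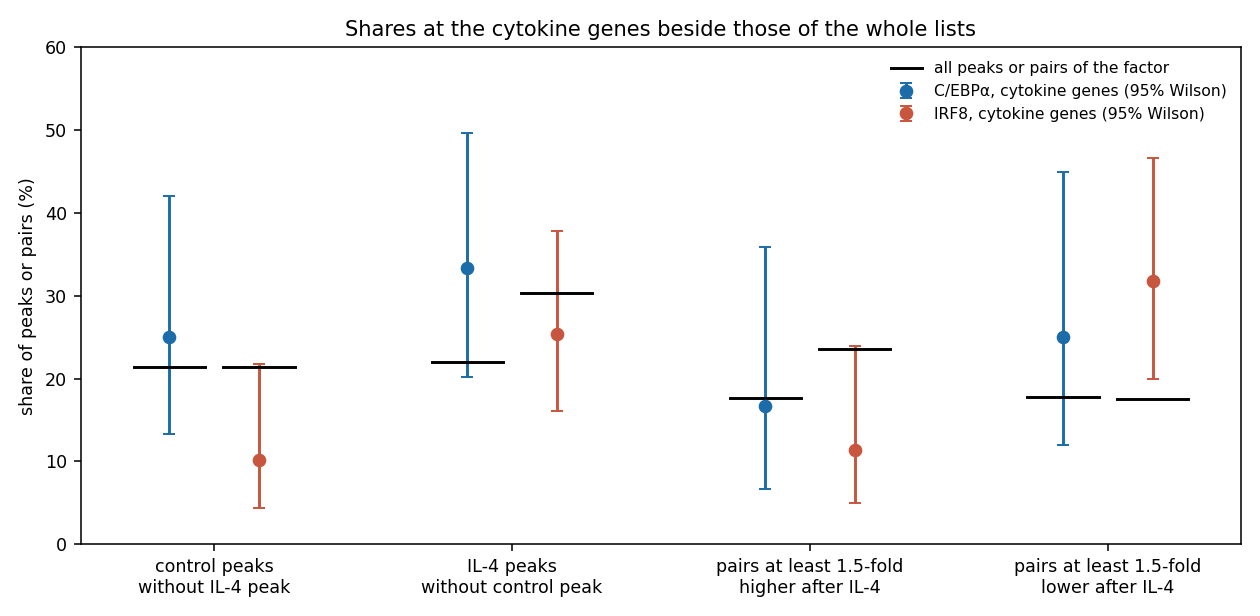
Share of peaks or pairs (vertical axis, %) at the cytokine genes for C/EBPα and IRF8, with Wilson 95% intervals for counting error as bars, beside the share over all peaks or pairs of the factor as black lines. The IRF8 share of pairs at least 1.5-fold lower after IL-4 was 31.8%, with an interval of 20% to 46.6% that lies above the line at 17.5%, while with the scores as deposited the other 7 intervals include their line.

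Among pairs scoring at least 50 in either condition, the IL-4 to control ratio ranged from 0.607 to 1.12 for C/EBPα (6 pairs at 4 genes) and from 0.642 to 1.34 for IRF8 (8 pairs at 4 genes). A change past 1.5-fold was found at 1 of the 6 C/EBPα and 1 of the 8 IRF8 pairs, against 18.9% and 19.8% of all pairs of the series with such scores. The lowest ratios were found at weaker peaks, 0.444 for C/EBPα at 2 Il12b sites and 0.166 for IRF8 downstream of Ifnb1.

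**Figure D4:**
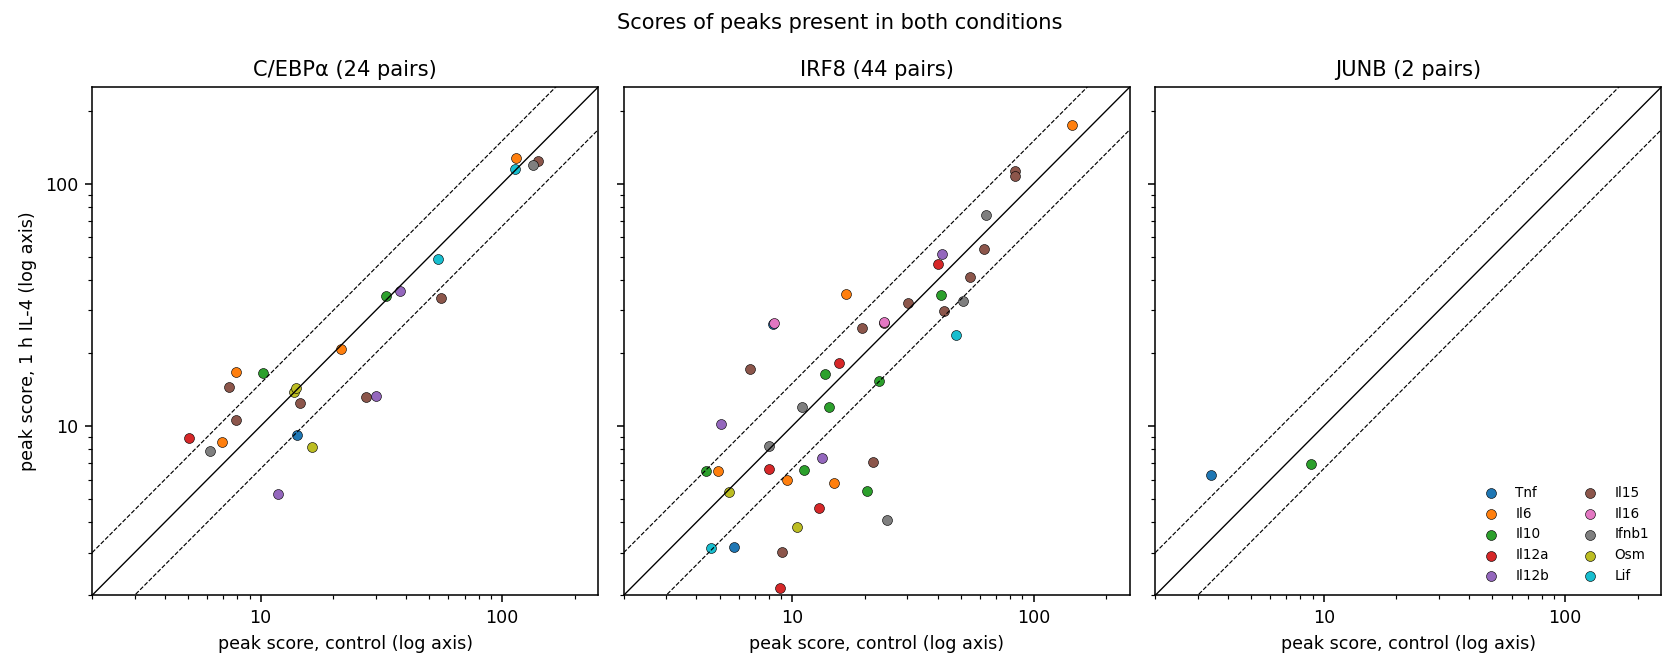
Peak score after 1 h IL-4 against the score in control (both log axes) for the peaks present in both conditions, with 24 C/EBPα, 44 IRF8 and 2 JUNB pairs coloured by gene. The solid line marks equal scores and dashed lines a 1.5-fold ratio either way, and the points above a score of 100 in both conditions lie between the dashed lines.

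Tnf, the gene of tumor necrosis factor, an early inflammatory cytokine, had 3 bound regions within its short locus. At the promoter the IRF8 score was 8.32 in control and 26.47 after IL-4, a ratio of 3.18 and the highest among the IRF8 pairs at cytokine genes. A C/EBPα peak overlapped it only after IL-4 (score 7.98), so both factors had their higher score at this promoter after IL-4. In intron 3, around the AP-1 match shown for this intron, C/EBPα scored 14.18 and 9.18 and JUNB 3.41 and 6.26. In intron 1 the IRF8 score was 5.74 in control and 3.17 after IL-4. Within Tnf the factors and sites therefore did not move in 1 direction.

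A nearest-TSS rule gives peaks beside Tnf to its neighbours Lta and Ltb, the lymphotoxin genes, and 15 such peaks were named so. The highest were C/EBPα peaks with scores of 35.74 in control and 32.23 after IL-4, at -14354 and -14314 bp from the Lta TSS. They were higher than any peak assigned to Tnf itself.

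Il6, the gene of the acute-phase cytokine IL-6, carried the highest IRF8 scores of all members at one distal region, -64764 bp from the TSS. There C/EBPα scored 114.49 in control and 127.98 after IL-4, IRF8 144.92 and 174.98, and a JUNB peak of 6.37 appeared after IL-4 only. C/EBPα and IRF8 thus had high scores there in resting cells as well as after IL-4. At the Il6 promoter the factors moved apart. C/EBPα, centred at -198 bp after IL-4, scored 7.93 in control and 16.77 after IL-4, while IRF8, centred at 32 bp, scored 9.5 and 5.96. At -19370 bp IRF8 scored 16.69 in control and 35.04 after IL-4, and a weak C/EBPα peak (3.65) was found there after IL-4. Il6 gained 5 peaks over all factors and lost 1, with IL-4-only scores of 2.67 to 6.9. The gains were 3 of 8 IRF8, 1 of 5 C/EBPα and 1 of 1 JUNB peaks after IL-4, against 30.4%, 22.0% and 39.2% of the lists. The loss was 1 of 5 C/EBPα control peaks, against 21.4%.

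Osm and Lif encode oncostatin M and leukemia inhibitory factor, IL-6-type cytokines that lie next to each other on chromosome 11. Osm had the weakest maximum of the members, a C/EBPα peak at -6749 bp that scored 16.3 in control and 8.19 after IL-4. In its 3' UTR the C/EBPα scores were nearly equal (13.99 and 14.35), whereas IRF8 scored 10.44 and 3.82. At Lif, C/EBPα scored 54.3 in control and 48.73 after IL-4 at 27545 bp downstream, where no IRF8 peak was called. Low scores, at most 6.85, were found at the 6 of 9 Lif regions with a peak in 1 list only, 3 of them control-only and 3 IL-4-only. The control-only peaks were 3 of 5 IRF8 control peaks, against 21.4% of the list. The IL-4-only peaks were 2 of 4 IRF8 and 1 of 3 C/EBPα peaks after IL-4, against 30.4% and 22.0%.

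Il12a and Il12b encode p35 and p40, the subunits of IL-12, the cytokine that drives T helper 1 responses. The subunit genes differed in the direction of gains and losses, a difference that was not tested. Il12a had 9 IL-4-only peaks and no control-only peak. The IL-4-only peaks were 4 of 5 C/EBPα and 5 of 10 IRF8 peaks after IL-4, against 22.0% and 30.4% of the lists. Il12b had 3 control-only peaks and no IL-4-only one. The control-only peaks were 1 of 4 C/EBPα and 2 of 5 IRF8 control peaks, against 21.4% of either list. These counts per gene are small, and the peaks of a locus are not independent. All 9 Il12a gains had low scores, from 2.35 to 8.99, each below the median of its list, and the 3 Il12b losses scored 6.49 to 8.94.

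At Il12a, 2 regions gained C/EBPα and IRF8 together, at -57840 bp (5.16 and 8.99) and at -28158 bp (3.62 and 8.53), and no other cytokine gene region did. The share of all regions of the series with such a joint gain is not given here. The strongest Il12a region, at -56880 bp, scored 40.35 and 46.76 for IRF8 and 5.05 and 8.94 for C/EBPα. Downstream, 2 IRF8 peaks of Il12a were lower after IL-4, from 8.88 to 2.14 at 80439 bp and from 12.91 to 4.59 at 87379 bp. Among the 9 gains, the IRF8 peak at 80807 bp (3.97) lay only 92 bp from the control peak at 80439 bp. The strongest Il12b region, at -21949 bp, scored 41.73 and 51.13 for IRF8 but 29.99 and 13.32 for C/EBPα. C/EBPα was also lower in intron 2 of Il12b (11.81 and 5.24) and nearly equal at -50340 bp (37.94 and 36.01).

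Il10, the gene of the anti-inflammatory cytokine IL-10, had the most JUNB peaks, 3 in control and 1 after IL-4. At 18451 bp downstream, the region whose 2 AP-1 matches were shown, JUNB scored 8.86 and 6.94, the highest JUNB score after IL-4 at any member. IRF8 scored 11.19 and 6.59 there, and a C/EBPα peak of 8.44 was found in control only. At 23134 bp JUNB was present in control only (5.44), IRF8 after IL-4 only (11.26), and C/EBPα scored 10.2 and 16.57. The JUNB peak in intron 3 (6.78, control only) was the single region of the members bound by JUNB alone, and its window held an AP-1 match.

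IRF8 had 7 Il10 peaks in control and 10 after IL-4. Of the latter, 3 of 10 were IL-4-only, against 30.4% of all IRF8 peaks after IL-4. The 3 gains lay at 14199 bp (17.57), 23095 bp (11.26, the region just described) and in intron 2 (8.53), and the first of these was the strongest IL-4-only peak of the members. Of the 7 IRF8 pairs of Il10, 5 had the lower score after IL-4, among them 20.36 and 5.41 at 6152 bp and 22.87 and 15.37 at -32224 bp. The other two had the higher score after IL-4, 4.37 and 6.54 at -30422 bp and 13.67 and 16.44 at -2533 bp. The main upstream region at -3994 bp changed little, with 33.11 and 34.29 for C/EBPα and 41.25 and 34.66 for IRF8.

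Il15, the gene of a cytokine that sustains NK and memory T cells, had 16 regions, 6 of them with at least 2 factors. The strongest lay in intron 1, 19020 bp from the TSS, where C/EBPα scored 141.66 in control and 123.54 after IL-4, IRF8 54.57 and 41.36, and JUNB 11.98 in control only. JUNB was likewise found in control only at a site in intron 2 (11.66), beside C/EBPα at 14.6 and 12.42 and IRF8 at 19.39 and 25.27. A JUNB peak of 4.22 appeared after IL-4 at 51032 bp, where IRF8 scored 23.96 and 26.5. IRF8 peaks were found at all 3 of these sites in both conditions, whereas each JUNB peak was called in 1. The strongest IRF8 sites of the gene were in introns, 83.84 and 112.52 at 31823 bp and 83.88 and 107.79 at 20080 bp. An IRF8 peak at the promoter was called after IL-4 only (7.79).

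Il16, which encodes a chemoattractant for CD4-bearing cells, and Ifnb1, which encodes interferon beta, moved in different ways. At Il16 the IRF8 score in intron 2 was 8.38 in control and 26.48 after IL-4, a ratio of 3.16, while the strongest peak, in the 5' UTR, scored 23.89 and 26.97. Both IRF8 pairs of Il16 were higher after IL-4. The Ifnb1 promoter carried IRF8 without C/EBPα, at 50.99 in control and 32.74 after IL-4, and the IRF8 peak at 7046 bp scored 24.58 and 4.09. No Ifnb1 peak was IL-4-only, and 3 were control-only (5.17, 6.63 and 7.63). These were 2 of 4 C/EBPα and 1 of 1 JUNB control peaks, against 21.4% and 64.2% of the lists. The upstream region at -14752 bp kept its C/EBPα (134.1 and 119.71) and IRF8 scores (63.43 and 74.15) and lost its JUNB peak (7.63).

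**Figure D5:**
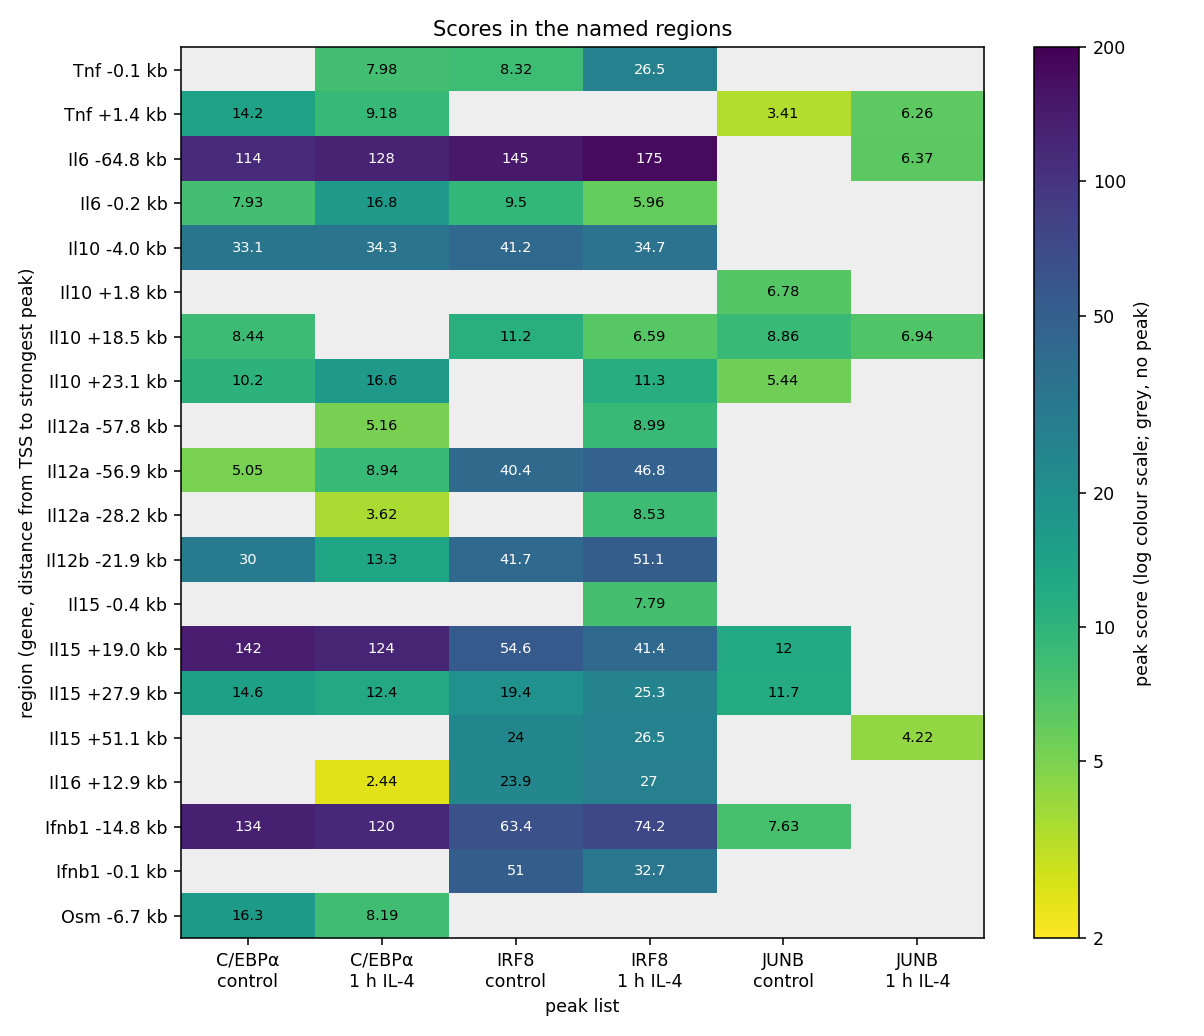
Peak scores (colour, log scale, with the value in each cell and grey for no peak) of the regions named by rule at 9 of the genes, 1 row per region with its gene and distance to the TSS, and 1 column per list. High C/EBPα and IRF8 scores stand at 1 region each of Il6, Il15 and Ifnb1 in both conditions, and JUNB cells are pale and mostly present in 1 condition.

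When the peaks of all lists were merged, the members held 83 regions. Of these, 28 (33.7%) were bound by 2 or 3 factors in at least 1 condition, against 32.3% of all 60856 regions of the series. IRF8 without C/EBPα was found at 38 of the 83 regions, against 30970 of 60845 regions of the series on assembled chromosomes. C/EBPα without IRF8 was found at 18 of the 83, against 10748 of the 60845. IRF8 alone was found at 37 regions, C/EBPα alone at 17 and JUNB alone at 1. No region had peaks in all 6 lists, and 27 had a peak in only 1. Series shares for the counts of single factors and of lists are not given here. In control 17 of 32 C/EBPα peaks overlapped an IRF8 peak (53.1%, 58.1% of all), and after IL-4 21 of 36 did (58.3%, 60.6% of all).

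An AP-1 match was found in 16 of 83 regions (19.3%, Wilson 95% interval 12.2% to 29%), within 200 bases around the highest peak centre, against 11.0% of 60845 regions of the series on assembled chromosomes. Such a match was held by 5 of the 9 regions with a JUNB peak, against 39.7% of all regions with one. For C/EBP (20.5% against 18.8%), IRF (15.7% against 13.5%), ETS-IRF (15.7% against 16.7%), PU.1 (26.5% against 23.4%), STAT6-type (20.5% against 14.5%) and NF-kB (13.3% against 12.1%) the interval of the members included the share over all regions at 200 bases. With a window of 300 bases the STAT6-type interval did not include it (28.9%, 20.3% to 39.4%, against 20.2%). The AP-1 share was then 25.3% (17.2% to 35.6%), against 13.6%. The counts by factor below are for 200 bases. A match is a description of letters and not of binding. IRF letters were found in 10 of 38 regions with IRF8 and no C/EBPα, against 16.7% of all such regions of the series. They were found in 2 of 26 regions with both factors, against 12.3%, and in 1 of 18 with C/EBPα and no IRF8, against 6.48%. ETS-IRF letters went the other way, in 5 of 38 regions with IRF8 and no C/EBPα, against 21%. They were found in 6 of 26 regions with both factors, against 15.9%. C/EBP letters were found in 5 of 18 regions with C/EBPα and no IRF8, against 41.5%. With both factors they were found in 7 of 26 regions, against 25.5%. These differences were not tested.

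The receptors of these cytokines (16 genes, 15 with a peak, 276 peaks) were set beside the ligands. At receptor genes IRF8 was higher after IL-4 at 17 of 61 pairs, against 23.6% of all pairs, and lower at 10, against 17.5%, with a median log2 change of 0.20. C/EBPα was higher at 6 of 40 receptor pairs, against 17.7%, and lower at 7, against 17.8%. The counts of the receptor genes were thus near the shares over all pairs, and their difference from the ligands was not tested. Lifr, the receptor of LIF, had 14 IRF8 peaks in control and 15 after IL-4. Il2rb, a chain of the IL-15 receptor, had no peak in the lists. As a check of the label, the 6 macrophage marker genes had 97 peaks and a top score of 190.03. The T cell marker genes had 3 peaks, all at Cd3d and at most 8.26, while the B cell marker list had 25 peaks with a top score of 213.99 near Ms4a1. The part of other cells in these values was not tested.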

How the data were processed

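Peak lists of 6 ChIP-seq samples were used. In the study's methods, reads were aligned to mm10 with BWA by the authors, who called peaks per sample with MACS2 at a q-value limit of 0.01 and removed ENCODE blacklisted regions. The submitters' processing notes name BWA 0.7.10, SAMtools 0.1.19, MACS2 2.0.10 and HOMER 4.2. No unit is stated for the score that the authors deposited, and the distance to the TSS, annotation and gene name were used as the authors gave them. Read depth and the control library were not given in the sources used here. Between 1 and 48 peaks per list scored under 2, the -log10 of the q-value limit.

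Peaks sharing at least 1 bp were called overlapping, pairs were formed largest overlap first, and regions were made by merging all lists. The GRCm38 reference was checked against the files. No peak ended past its chromosome, and of 172 member peaks whose named transcript was in RefSeq, 159 had a deposited distance within 100 bp of the distance to its start. Emr1 and Sfpi1 were used as the older symbols of Adgre1 and Spi1.

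Regions were named when they were the strongest of their gene, at a promoter-TSS, bound by JUNB, gained or lost in 2 or more factors, or changed past 1.5-fold in 2 or more factors. Other regions were named after their values were seen, and 1 region named by the rule is not reported here. The members, gene lists and rules were chosen with earlier results of these data known. Shares carry Wilson 95% intervals. Alternatives changed the score minimum, distance, gene assignment, overlap, list length, score scaling, peak width and motif window. Python 3.11.15 was used with pandas 2.3.3, numpy 2.4.6, matplotlib 3.10.9 and scipy 1.17.1, overlaps were compared with bedtools 2.31.1, and all 5 of 5 checks on simulated data passed.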

Additional observations from a re-analysis of the deposited data

Results flagged for a closer look

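Some results went in opposite directions in different factors under the same comparison of 1 h IL-4 with control. Each rests on 1 sample per group, and none of the differences was tested.

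C/EBPα peaks at the cytokine genes numbered 32 in control and 36 after IL-4 and IRF8 peaks 49 and 59, whereas JUNB peaks numbered 7 and 4. The whole lists moved the same way, with 24486 and 24612 C/EBPα, 37525 and 42076 IRF8, and 3940 and 2325 JUNB peaks. The contrast between factors is therefore not particular to these genes. At the Il10 region starting at 131042811 on chromosome 1, an IRF8 peak was gained (score 11.26) and a JUNB peak lost (5.44). At the Il6 promoter the IL-4 to control ratio of the score was 2.11 for C/EBPα and 0.627 for IRF8. In intron 3 of Tnf it was 0.647 for C/EBPα and 1.84 for JUNB.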

How the results depend on the processing

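Of 77 alternative values, 58 were labelled the same, 19 moved and 0 reversed. Each value was labelled by itself, so a turned order of 2 counts is not labelled reversed. The label of the same was wide. It covers peaks within 50000 bp of a reference TSS, 44 and 47 for C/EBPα and 64 and 73 for IRF8. It also covers a JUNB median log2 change of 0.61 with scores divided by the list median, against 0.26 as deposited. With scores of at least 10 only, the cytokine gene peaks numbered 18 in control and 19 after IL-4 (C/EBPα), 30 and 29 (IRF8), and 2 and 0 (JUNB). Control-only and IL-4-only peaks then came to 3 and 4 (C/EBPα), 8 and 7 (IRF8), and 2 and 0 (JUNB), and 11 of 48 regions held several factors. IRF8 therefore had neither more peaks after IL-4 nor more IL-4-only than control-only peaks above this score. With lists of equal length, control-only and IL-4-only peaks numbered 10 and 12 for IRF8 and 3 and 3 for JUNB. As deposited they numbered 5 and 15 for IRF8 and 5 and 2 for JUNB. Within 50000 bp of a reference TSS, control-only and IL-4-only peaks numbered 8 and 17 for IRF8 and 5 and 1 for JUNB. With percentile ranks the JUNB median log2 change was 1.97, from 2 pairs. The causes were not tested.

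No paired analysis was possible because each group held 1 sample and the labels give no replicate numbers. Unknown depth and the unstated score unit limit every comparison of scores, and no sample can be left out.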
